A study of Mus musculus with 6 samples.

Results

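Transcript levels of 7 zinc-handling genes were read in mouse livers labelled as a Nek7 knockout and in wild-type livers. The genes were the metallothioneins Mt1 and Mt2, the transcription factor gene Mtf1, the importer genes Slc39a14 and Slc39a8, and the exporter genes Slc30a1 and Slc30a10. They were taken by gene symbol from a deposited RNA-seq table of 17441 genes, all 7 were present, and all 7 passed the filter on low counts that left 13160 tested genes. The set was drawn up with the difference between the labelled groups already known, Mt1 and Mt2 being among the steepest rises of that contrast, so the values of the 7 genes are given as a description and without a test.

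The groups were 3 livers labelled iKO, from mice with a whole-body Nek7 knockout that tamoxifen induces, and 3 wild-type (WT) livers. Both groups were collected 10 days after tamoxifen injection. The labels give no age, strain, sex or hour of collection, and they do not name the driver of the inducible recombinase. They number the livers within a group, and nothing says more about how the animals were kept apart, so the spread between livers is the error used here.

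Metallothioneins are small cysteine-rich proteins that bind zinc, copper and cadmium in the cytosol. The zinc-sensing factor MTF1 binds metal response elements in their promoters when free zinc rises, and glucocorticoids and interleukin-6 also induce them in liver. ZIP proteins, encoded by Slc39a genes, carry zinc and other divalent ions into the cytosol, and ZnT proteins, encoded by Slc30a genes, carry ions out of it.

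Libraries held 18139507 to 19246384 expected counts in the livers labelled iKO and 18920960 to 19911983 in WT livers. Nek7 itself did not separate the labels, at 38.0 ± 10.6 CPM in the livers labelled iKO and 44.1 ± 10.1 CPM in WT livers (SD, n = 3 each; log2 fold change -0.22, adjusted p = 0.541 by edgeR). CPM here are expected counts scaled to library totals after TMM normalization. The gene total does not show whether a deleted exon is missing, and the livers are therefore called "labelled iKO". Y-linked Ddx3y and Kdm5d together gave 573 to 883 expected counts in the libraries labelled iKO and 1113 in WT 1, but 0 in WT 2 and 0 in WT 3. Every library labelled iKO held such reads and only WT 1 did among the WT libraries, so this split partly coincides with the labels. A difference tied to it cannot be fully told apart from the group difference. Fold changes also followed transcript length. The median log2 fold change, labelled iKO over WT, was 0.33 in the shortest of 5 equal classes of genes by length and -0.25 in the longest. The 10 hepatocyte markers summed to 106869 to 116588 CPM in the livers labelled iKO and 105584 to 117757 CPM in WT livers. The 12 stellate cell markers summed to 188 to 242 CPM in the livers labelled iKO and 375 to 629 CPM in WT livers, without overlap. The 9 neutrophil markers summed to 11.8 to 36.5 CPM and 28.1 to 124 CPM in the same order, with overlap. Of these 9, edgeR called 5 lower and 0 higher, where 8.07% of all tested genes were called lower.

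Across the transcriptome 2024 of 13160 genes, or 15.4%, were called at an adjusted p of 0.05 by edgeR's quasi-likelihood test with Benjamini-Hochberg adjustment. Of the 7 zinc genes 6 were past that threshold, 4 higher (Mt1, Mt2, Mtf1 and Slc39a14) and 2 lower (Slc39a8 and Slc30a10). The same fit called 7.31% of all genes higher and 8.07% lower. The genes were chosen from this contrast, so nothing is read from their count. It was 2 without WT 2, 3 without WT 3, 3 without iKO 3, 3 with a block for replicate number, and 2 once Y-linked reads entered the model. The Mt1 call ended without WT 2, without WT 3 and with the replicate block. The Mt2 call ended without any 1 library except WT 1, and with limma-voom, the replicate block and the length offset. It also ended with a filter of 1 count, on both FPKM scales and once Y-linked reads entered the model. The Mtf1 call ended without any 1 library except iKO 2, with the replicate block and on both FPKM scales. It also ended once Y-linked reads entered the model. The fit on the libraries with Y-linked reads, where WT 1 is the only WT library, is left out of these lists. The median log2 fold change of the 7 genes was 0.61, beside -0.02 over all tested genes. The groups did not overlap for 6 of the 7 genes in CPM, beside 39.0% of all tested genes, and for 6 of 7 in TPM, beside 32.0%.

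Mt1 (gene ID 17748) and Mt2 (gene ID 17750) lie side by side on chromosome 8. Their promoter windows are shown because these were the steepest differences of the 7 genes. That of Slc30a1 is shown because this exporter gene is a textbook target of the same factor. Its levels overlapped between the groups in CPM but not in TPM. Each window runs from 250 bases before to 50 bases after the annotated start, on the plus strand of GRCm38.p6, as RefSeq gives it. It is a later build than the one named for the expression table. Capitals mark the metal response element core, searched as TGCACNC and TGCGCNC on both strands, overlapping matches each counted. Windows were at chr8:94178839-94179138 for Mt1, chr8:94172368-94172667 for Mt2 and chr1:191906531-191906830 for Slc30a1.
Mt1: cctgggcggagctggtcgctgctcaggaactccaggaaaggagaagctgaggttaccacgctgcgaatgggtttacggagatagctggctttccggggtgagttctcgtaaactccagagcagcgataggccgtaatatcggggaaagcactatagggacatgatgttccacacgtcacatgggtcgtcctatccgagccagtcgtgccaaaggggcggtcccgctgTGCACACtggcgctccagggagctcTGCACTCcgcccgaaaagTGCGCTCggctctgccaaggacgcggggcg
Mt2: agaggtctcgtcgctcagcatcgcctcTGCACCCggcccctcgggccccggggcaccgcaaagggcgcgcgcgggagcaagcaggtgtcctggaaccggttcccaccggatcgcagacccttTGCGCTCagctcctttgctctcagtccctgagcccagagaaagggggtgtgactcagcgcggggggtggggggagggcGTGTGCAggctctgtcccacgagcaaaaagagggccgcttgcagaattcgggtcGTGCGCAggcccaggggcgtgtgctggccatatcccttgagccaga
Slc30a1: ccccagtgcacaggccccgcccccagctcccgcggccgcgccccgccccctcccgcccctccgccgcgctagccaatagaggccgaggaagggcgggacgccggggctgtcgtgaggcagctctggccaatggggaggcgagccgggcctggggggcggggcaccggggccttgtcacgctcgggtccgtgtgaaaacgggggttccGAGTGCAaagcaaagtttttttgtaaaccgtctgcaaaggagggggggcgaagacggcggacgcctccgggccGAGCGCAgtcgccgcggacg

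The Mt1 window held 3 matches, the Mt2 window 4 and the Slc30a1 window 2. Of 32851 promoter windows of this length 25.7% held at least 1 match, 7.11% at least 2, 1.97% at least 3 and 0.517% at least 4. The Slc30a10 window held 3 matches, 2 of them overlapping on opposite strands. The 2 windows of Slc39a8 held 0 and 1, and the Mtf1 window held 0. Windows were at hand for 6 of the 7 genes, Slc39a14 being the other. A match describes the letters in the window and does not show that MTF1 binds there.

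Both metallothionein transcripts were more than an order of magnitude higher in the livers labelled iKO. Mt1 stood at 2887, 846 and 853 CPM in iKO 1, iKO 2 and iKO 3, against 28.4, 112 and 132 CPM in WT 1, WT 2 and WT 3. The lowest liver labelled iKO was above the highest WT liver, and the libraries that stood apart within their groups were iKO 1 at the top and WT 1 at the bottom. The log2 fold change was 4.08 (SE 0.80), or 16.9-fold, with means of 1529 ± 1176 CPM in the livers labelled iKO and 90.6 ± 54.8 CPM in WT livers (SD, n = 3 each).

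Mt2 stood at 2653, 844 and 610 CPM in iKO 1, iKO 2 and iKO 3, against 16.0, 106 and 94.1 CPM in WT 1, WT 2 and WT 3. Its log2 fold change was 4.25 (SE 0.96), or 19.0-fold, and its groups did not overlap. Among all tested genes Mt2 had the 8th and Mt1 the 10th largest fold change upward. Expected counts of both genes were whole numbers in each of the 6 libraries.

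The size of the metallothionein difference depended on iKO 1 and WT 1. Without iKO 1 the log2 fold change was 3.23 for Mt1 and 3.34 for Mt2, and without WT 1 it was 3.65 and 3.78. In the model that accounts for Y-linked reads, where the contrast rests on WT 1 as the only WT library with such reads, it was 5.75 for Mt1 and 6.42 for Mt2. That fit assumes that WT 1 varies like the other livers. In the 4 libraries with Y-linked reads Mt1 spanned 846 to 2887 CPM in the livers labelled iKO, beside 28.4 CPM in WT 1. These transcripts are short, at effective lengths of 501 bases for Mt1 and 507 bases for Mt2 against a median of 2822 bases over tested genes, and a model offset for length gave 3.36 and 3.51.

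**Figure D1:**
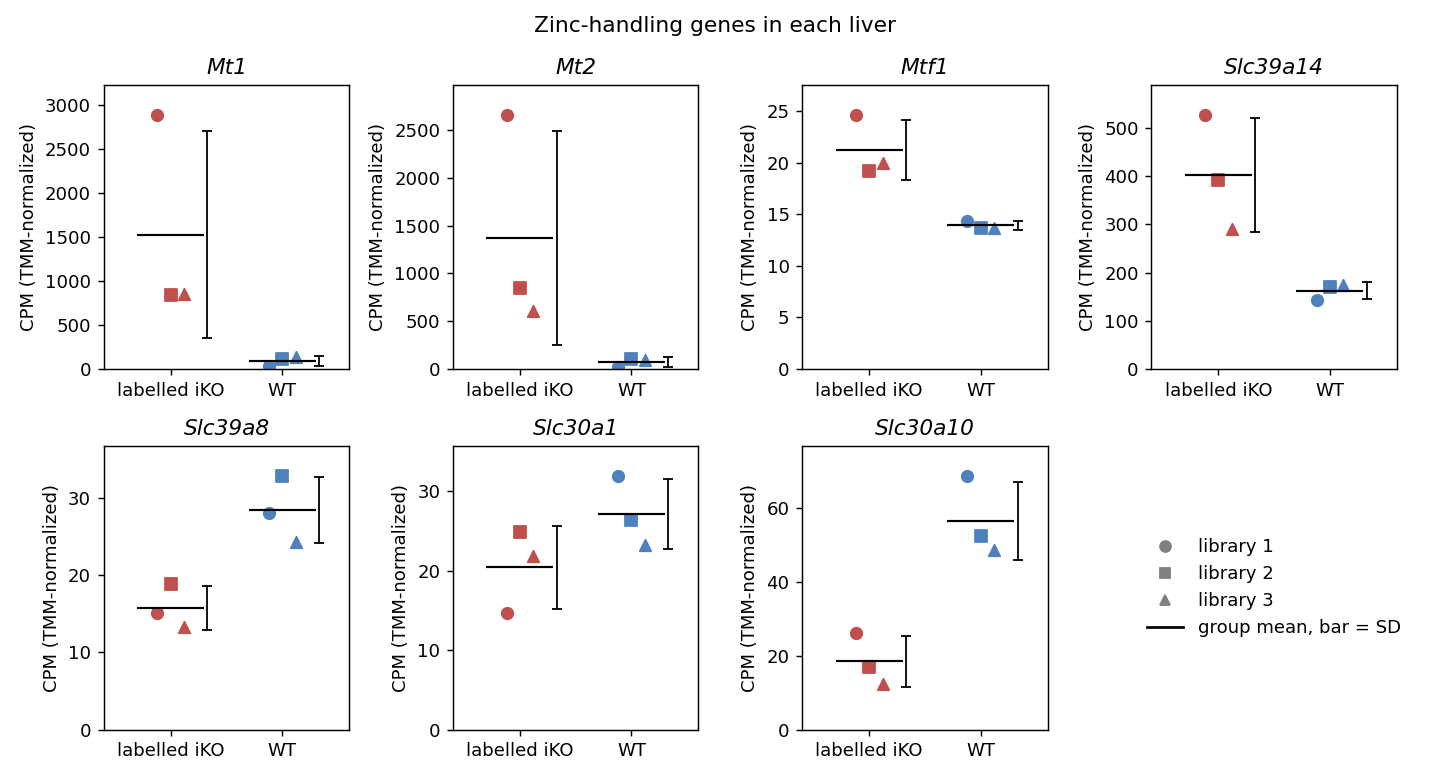
Levels of the 7 zinc-handling genes in each liver, in TMM-normalized CPM on linear axes that start at 0; symbols are single libraries, lines are group means and bars are the SD over 3 livers. Mt1 reaches 2887 CPM in iKO 1 beside 132 CPM in the highest WT liver, while the groups overlap for Slc30a1.

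Metallothionein spread between livers was wide within both groups. In the livers labelled iKO the highest was 3.41 times the lowest for Mt1 and 4.35 times for Mt2, and in WT livers 4.65 and 6.62 times. The pooled SD within groups on the log2(CPM + 1) scale was 1.11 for Mt1 and 1.31 for Mt2, beside a median of 0.23 over the 12226 tested genes that averaged 1 CPM or more. Mt2 was 64th and Mt1 83rd in that order from the widest. The other 5 zinc genes were far tighter, from 0.13 for Mtf1 to 0.40 for Slc30a10.

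The proportion within the pair varied far less than its level. The ratio of Mt2 to Mt1, on the length-scaled TPM values, was 0.902, 0.985 and 0.708 in the livers labelled iKO, against 0.566, 0.940 and 0.703 in WT livers, so the groups overlapped. Together the pair made up 1.25%, 0.559% and 0.498% of all TPM in the livers labelled iKO, against 0.0141%, 0.0924% and 0.0822% in WT livers. By TPM, the abundance rank of Mt1 was 30, 49 and 45 in iKO 1, iKO 2 and iKO 3, against 1111, 275 and 293 in WT 1, WT 2 and WT 3.

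The other 2 genes of the cluster were close to undetected. Mt4, known from stratified epithelia, gave 0 counts in all 6 libraries, which allows up to 3 counts or 0.133 to 0.20 CPM per library (counting error only). Mt3, known from brain, gave 1 expected count each in iKO 1 and iKO 3 and 0 in the other 4 libraries.

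Mtf1 (gene ID 17764), which encodes the zinc-sensing activator of the metallothionein genes, differed far less. It stood at 24.6, 19.1 and 19.9 CPM in the livers labelled iKO, against 14.4, 13.7 and 13.6 CPM in WT livers. On this scale the groups were apart, with a log2 fold change of 0.61 (SE 0.16). On the TPM scale they overlapped, at 3.66, 4.20 and 4.51 TPM in the livers labelled iKO, against 3.07, 3.87 and 3.29 TPM in WT livers. The scaling sets the size of this difference: it was 0.29 on log2(FPKM + 1), 0.39 on log2(FPKM + 0.1) and 0.90 with the length offset, Mtf1 being a long transcript (7576 bases). The median over all genes was -0.20 on log2(FPKM + 0.1), lower by 0.17 than with TMM. Expected counts of Mtf1 were not whole in 5 libraries, so its level is less certain.

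The importers moved in opposite directions. Slc39a14 (gene ID 213053) encodes ZIP14, which carries zinc, iron and manganese into hepatocytes and is induced by interleukin-6. It stood at 527, 393 and 291 CPM in the livers labelled iKO, against 144, 169 and 175 CPM in WT livers. Every liver labelled iKO was above every WT liver, on TPM as well (109 to 135 TPM against 45.1 to 69.5 TPM). The log2 fold change was 1.31 (SE 0.24), or 2.48-fold, and it ran from 1.07 to 1.58 over the 17 alternative settings. Its call by edgeR ended once Y-linked reads were modelled, where the log2 fold change was 1.49.

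Slc39a8 (gene ID 67547) encodes ZIP8, the closest relative of ZIP14, which also carries manganese and is needed to recover manganese from bile. It stood at 15.1, 18.8 and 13.2 CPM in the livers labelled iKO, against 28.0, 32.8 and 24.3 CPM in WT livers. The highest liver labelled iKO was below the lowest WT liver. The log2 fold change was -0.85 (SE 0.19), or 1.81-fold lower, with a range of -1.06 to -0.71 over the alternatives. Its call ended without iKO 3 (adjusted p = 0.069 by edgeR) and without WT 2 (0.103). It also ended once Y-linked reads were modelled, where the log2 fold change was -0.84. In a whole-liver sample, fewer cells of a type and less RNA per cell cannot be told apart. The 10 Kupffer cell markers summed to 304 to 383 CPM in the livers labelled iKO and 426 to 804 CPM in WT livers, with 0 called higher and 6 called lower of 10. The 10 sinusoidal endothelial markers summed to 79.3 to 165 CPM and 189 to 299 CPM in the same order, with 0 called higher and 3 called lower of 10. Over all tested genes 8.07% were called lower. No marker of either list was at 0 in any library. Their part in the Slc39a8 difference was not tested.

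The importer pair changed its proportion. Slc39a14 was 22.9, 13.8 and 15.5 times Slc39a8 in TPM in the livers labelled iKO, against 3.21, 3.08 and 4.30 times in WT livers. Expected counts of both genes were fractional in each of the 6 libraries, which makes their levels less certain.

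The exporters were lower or overlapping. Slc30a10 (gene ID 226781) encodes ZnT10, which despite its family name acts mainly as a manganese exporter and clears manganese from liver into bile. It stood at 26.1, 16.8 and 12.5 CPM in the livers labelled iKO, against 68.6, 52.3 and 48.7 CPM in WT livers. The groups were far apart in CPM and in TPM (3.69 to 5.10 TPM against 15.4 to 19.4 TPM). The log2 fold change was -1.62 (SE 0.27), or 3.07-fold lower, and it ran from -1.94 without iKO 1 to -1.32 with the length offset. Expected counts were not whole in 4 libraries.

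Slc30a1 (gene ID 22782) encodes ZnT1, the zinc exporter of the plasma membrane and, after the metallothioneins, the best-known gene that MTF1 activates. It stood at 14.7, 24.8 and 21.9 CPM in the livers labelled iKO, against 31.9, 26.4 and 23.2 CPM in WT livers. The groups overlapped, and iKO 1, the library with the most metallothionein RNA, had the least Slc30a1. The log2 fold change was -0.41 (SE 0.21, 95% interval -0.89 to 0.07), and below 0 in all 17 alternatives, from -0.64 to -0.17. In TPM the groups did not overlap, at 3.20, 7.96 and 7.24 TPM in the livers labelled iKO, against 9.97, 10.9 and 8.15 TPM in WT livers. On that scale 6.19% of tested genes lay wholly higher and 25.8% wholly lower, where in CPM the shares were 19.8% and 19.2%.

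**Figure D2:**
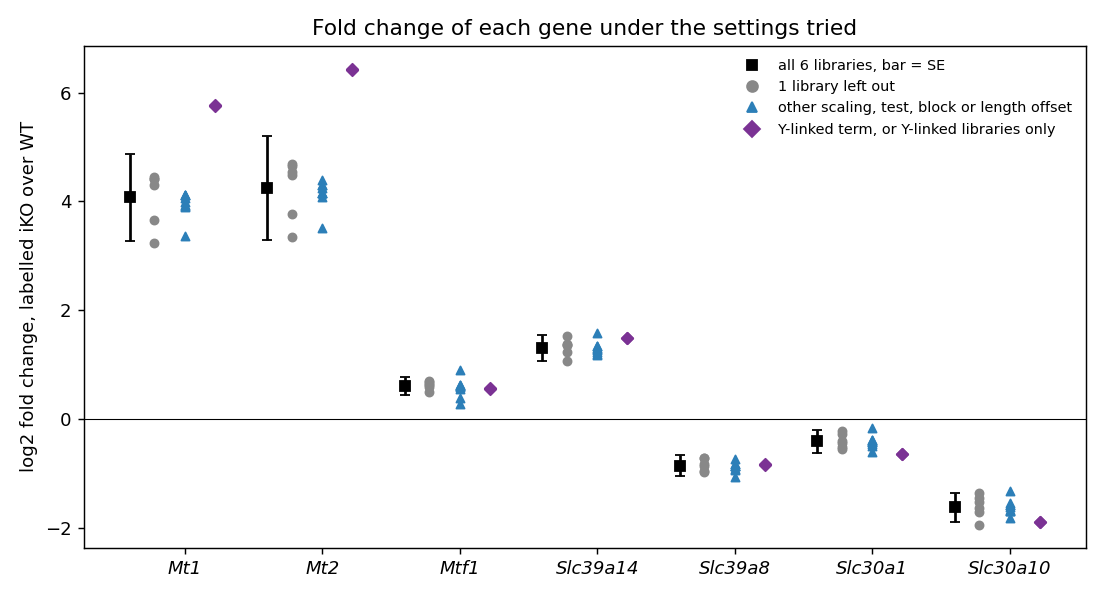
Log2 fold change of the 7 genes, labelled iKO over WT, with all 6 libraries (squares, bars are SE), with 1 library left out (circles), with another scaling, test, block or length offset (triangles), and with Y-linked reads in the model or as the choice of libraries (diamonds). Each gene keeps its side of 0, and Mt1 and Mt2 have the widest range, 3.23 to 5.77 and 3.34 to 6.44.

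Taking importer and exporter of hepatocyte manganese together, the balance of transcripts differed widely. The ratio of Slc39a14 to Slc30a10 in TPM was 23.7, 27.8 and 29.5 in the livers labelled iKO, against 2.35, 3.59 and 3.98 in WT livers. The lowest ratio in the first group was several times the highest in WT. The ratio of Slc30a1 to Slc30a10 was 0.627, 1.64 and 1.96 in the livers labelled iKO, against 0.519, 0.563 and 0.530 in WT livers, with iKO 1 close to WT.

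Order of abundance was read per length, in TPM. In the livers labelled iKO the means ran Mt1 (4095 ± 2131), Mt2 (3584 ± 2049), Slc39a14 (121 ± 12.9), Slc39a8 (7.35 ± 2.25), Slc30a1 (6.13 ± 2.57), Slc30a10 (4.55 ± 0.752) and Mtf1 (4.12 ± 0.430). Neighbours overlapped in that order except Mt2 with Slc39a14 and Slc39a14 with Slc39a8. Further apart in the order, Slc39a8 (5.27 to 9.74 TPM) lay wholly above Slc30a10 (3.69 to 5.10 TPM) and Mtf1 (3.66 to 4.51 TPM). In WT livers the means ran Mt1 (350 ± 225), Mt2 (279 ± 205), Slc39a14 (58.6 ± 12.4), Slc30a10 (18.0 ± 2.25), Slc39a8 (16.9 ± 4.85), Slc30a1 (9.67 ± 1.39) and Mtf1 (3.41 ± 0.413; SD, n = 3 for each mean). There Slc30a10 and Slc39a8 overlapped and both lay above Slc30a1, which lay above Mtf1. In WT 1 alone, Mt2 at 51.1 TPM fell within the range of Slc39a14.

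Within the livers labelled iKO, iKO 1 was the highest library in CPM for 5 of the 7 genes and the lowest for Slc30a1. That order depended on the scale. In TPM iKO 1 was the highest for Mt1, Mt2 and Slc30a10 and the lowest for Mtf1, Slc39a8 and Slc30a1. The TMM factor that scales the library total was 0.780 in iKO 1, beside 0.990 in iKO 2 and 1.06 in iKO 3. Over the 6 libraries Pearson's r of log2(CPM + 1) with Mt1 was 0.996 for Mt2, 0.965 for Slc39a14 and 0.921 for Mtf1. It was -0.817 for Slc30a10, -0.851 for Slc39a8 and -0.865 for Slc30a1. The group difference sets much of these values, since the 6 points share 2 groups and the same library scaling, and of 12226 genes 613 had an r of at least 0.9 and 458 an r of at most -0.9. Mt2 was the gene most like Mt1 of all. Next came Aaas (0.990, a nucleoporin gene), Kctd13 (0.990, a cullin adaptor gene), Sds (0.989, serine dehydratase), Rgs16 (0.988, a regulator of G protein signaling), Triobp (0.988, an actin-binding protein gene) and Rae1 (0.987, an mRNA export factor gene). Sds ordered the 6 libraries as Mt1 did, at 581, 403 and 482 CPM in the livers labelled iKO, against 96.0, 181 and 194 CPM in WT livers. The others spanned far smaller changes than Mt1, with log2 fold changes from 0.33 for Triobp to 2.29 for Rgs16, the last at 3.67 once Y-linked reads were modelled.

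Calls were absent among the remaining zinc transporters. Of 20 other Slc30a and Slc39a genes 17 were tested, and 0 were called by edgeR's quasi-likelihood test, with 2 at an unadjusted p under 0.05. The same test called 15.4% of all tested genes, so few calls would be looked for among 17. Limma-voom called 0 and DESeq2 called 1. Their median log2 fold change was 0.18, beside -0.02 over all tested genes. In CPM 3 were wholly higher, 2 wholly lower and 12 overlapping between groups, where 39.0% of all tested genes did not overlap. The most abundant of them, singled out after their levels were seen, were Slc39a1 (67.7 TPM in the livers labelled iKO and 75.7 TPM in WT livers), Slc39a4 (58.1 and 62.5 TPM in that order) and Slc39a7 (51.7 and 67.7 TPM). In the livers labelled iKO, every Slc39a14 value (109 to 135 TPM) lay above those of these 3 genes (at most 77.9 TPM), while in WT livers its mean of 58.6 TPM was under those of all 3. In WT its range of 45.1 to 69.5 TPM overlapped that of Slc39a1 (62.6 to 84.5 TPM), Slc39a4 (52.2 to 74.3 TPM) and Slc39a7 (57.4 to 79.2 TPM). The gene nearest the threshold, also singled out afterwards, was the low-level importer gene Slc39a5, at 0.399 ± 0.256 CPM in the livers labelled iKO and 1.51 ± 0.727 CPM in WT livers (SD, n = 3 each; log2 fold change -1.95, adjusted p = 0.0504 by edgeR). Its adjusted p ran from 0.0247 with DESeq2 to 0.745 in the libraries with Y-linked reads, and its log2 fold change was -0.83 once such reads were modelled and -0.63 on log2(FPKM + 1).

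**Figure D3:**
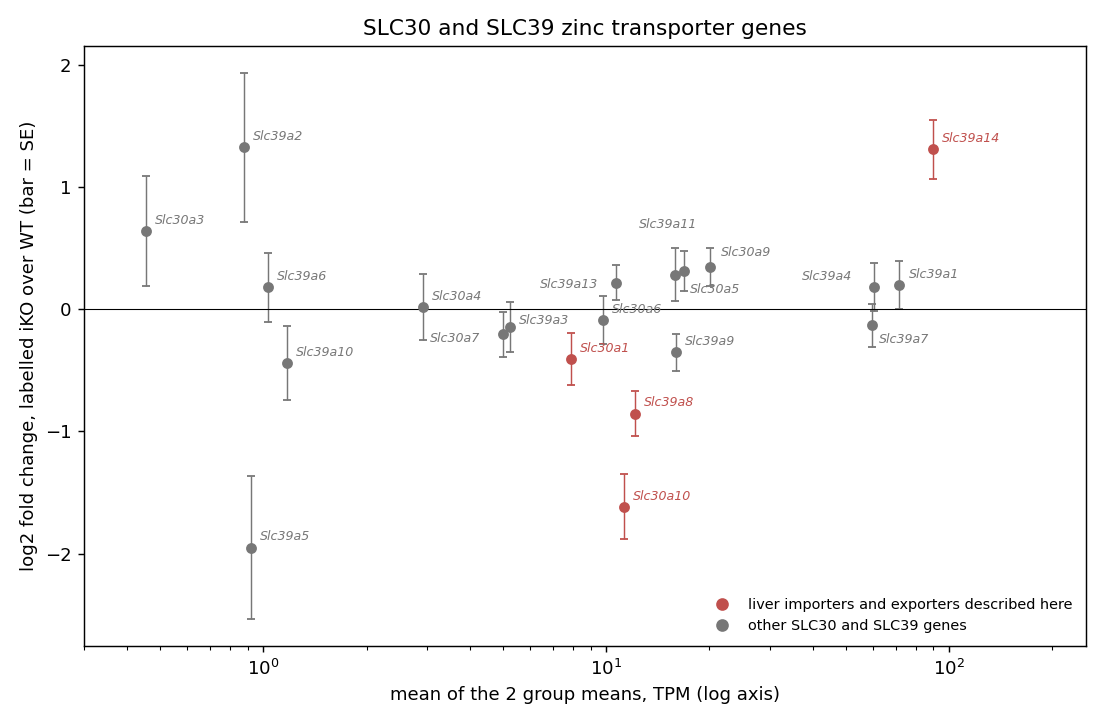
Log2 fold change, labelled iKO over WT (bars are SE), against mean TPM on a log axis for the tested Slc30a and Slc39a genes. Slc39a14 lies at the upper right, Slc30a10 and Slc39a8 lie below 0, and most other transporters lie close to 0.

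Of 6 other tested genes reported as MTF1 targets, edgeR's quasi-likelihood test called 0 higher and 3 lower, with 4 at an unadjusted p under 0.05 in either direction. Over all tested genes it called 7.31% higher and 8.07% lower. DESeq2 called 1 higher and 3 lower, and limma-voom 0 higher and 2 lower. The median log2 fold change of the list was -0.81. Ndrg1, a stress- and metal-responsive gene, was at 10.8 ± 0.968 CPM in the livers labelled iKO and 47.2 ± 2.64 CPM in WT livers (SD, n = 3 each; log2 fold change -2.13, SE 0.15, adjusted p = 0.000186 by edgeR). Gclc, the catalytic subunit of glutamate-cysteine ligase, fell by 1.37 on the log2 scale (SE 0.33, adjusted p = 0.0258 by edgeR), and Csrp1, a LIM-domain protein gene, fell by 1.18 (SE 0.29, adjusted p = 0.0274 by edgeR). Without iKO 2, iKO 3, WT 2 or WT 3 the count was 1, and it was also 1 once Y-linked reads were modelled, where the log2 fold change of Csrp1 was -0.35. Ndrg1 kept its call in all 17 alternatives. The Gclc call ended without WT 1 too (adjusted p = 0.0563 by edgeR), and the Csrp1 call without iKO 1 (0.071).

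Of 12 copper-handling genes edgeR called 2, in a table where 15.4% of genes were called. Cox17, a copper chaperone for cytochrome oxidase, rose by 0.77 (SE 0.19, adjusted p = 0.0284 by edgeR) and Atp7b, the copper exporter of hepatocytes, fell by 0.98 on the log2 scale (SE 0.15, adjusted p = 0.00501 by edgeR). Cox17 is short, and its log2 fold change was 0.06 with the length offset. Its call ended without iKO 1, iKO 3, WT 2 or WT 3, where the count for the list was 1, and it was 0 once Y-linked reads were modelled. Of 10 genes of iron and manganese handling edgeR called 0 higher and 1 lower, with 3 at an unadjusted p under 0.05 in either direction. DESeq2 called 1 higher and 1 lower, and limma-voom 0. The gene edgeR called was the divalent metal importer gene Slc11a2 (log2 fold change -0.62, SE 0.18, adjusted p = 0.046 by edgeR). Leaving out any 1 library ended that call, the adjusted p by edgeR reaching 0.119 without WT 3. The median log2 fold change was 0.40 for the copper list and -0.15 for the iron and manganese list.

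Genes of the hormonal and cytokine inputs to metallothionein and Slc39a14 transcription were read as well. Of 12 glucocorticoid receptor and target genes edgeR called 7 higher and 1 lower, where 7.31% of all tested genes were called higher and 8.07% lower. The median log2 fold change of the list was 1.32, beside -0.02 over all tested genes. Per1, also a clock gene, rose by 2.99 (SE 0.49, adjusted p = 0.0121 by edgeR), and the receptor cochaperone gene Fkbp5 was at 129 ± 4.23 CPM in the livers labelled iKO and 27.7 ± 3.51 CPM in WT livers (SD, n = 3 each; adjusted p = 0.00021 by edgeR). Zbtb16, a transcription factor gene, rose by 2.14 (SE 0.27) and Pck1, the gluconeogenic enzyme gene, by 1.99 (SE 0.25) on the log2 scale. Unlike Mt1, Fkbp5 varied little between the livers labelled iKO. The receptor gene Nr3c1 was the 1 called lower. No gene of the list was called lower without iKO 1, iKO 3, WT 2 or WT 3, with the length offset or once Y-linked reads were modelled. The count was 5 without WT 2 and 5 without WT 3, and 3 once Y-linked reads were modelled, where the log2 fold change of Per1 was 4.56. Leaving out iKO 1 ended the call of Per1 (adjusted p = 0.0547 by edgeR).

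Of 24 genes of the interleukin-6 and acute phase response edgeR called 5 higher and 1 lower. Over all tested genes it called 7.31% higher and 8.07% lower. The median log2 fold change of the list was 0.67, beside -0.02 over all tested genes. Il6st was the 1 called lower, at 59.0 ± 18.2 CPM in the livers labelled iKO and 116 ± 17.8 CPM in WT livers (SD, n = 3 each; log2 fold change -0.97, adjusted p = 0.0301 by edgeR). No gene of this list was called lower without iKO 3, WT 2 or WT 3. The acid glycoprotein gene Orm2 rose by 2.43 (SE 0.32), the STAT3 feedback gene Socs3 by 2.06 (SE 0.51), Cebpd by 2.04 (SE 0.31) and Cebpb by 2.00 (SE 0.26) on the log2 scale, the last 2 encoding acute phase transcription factors. Socs3 was at 63.1 ± 38.2 CPM in the livers labelled iKO and 15.1 ± 3.14 CPM in WT livers (SD, n = 3 each; adjusted p = 0.0444 by edgeR), a call that ended without any 1 library except iKO 3 (adjusted p up to 0.18, without WT 2). Saa1, Saa2 and Saa3, picked out after their values were seen, were not called. Saa1 stood at 1868, 261 and 375 CPM in the livers labelled iKO, against 263, 120 and 219 CPM in WT livers, and the groups overlapped. Saa2 stood at 1698, 111 and 196 CPM in the livers labelled iKO, against 55.6, 65.9 and 103 CPM in WT livers, without overlap. Library iKO 1 was the highest for both. The count of called genes was 3 without WT 2, 11 with DESeq2 and 2 once Y-linked reads were modelled, where the log2 fold change of Orm2 was 3.14.

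Of 11 tested genes of the heavy metal and oxidative stress response edgeR called 2 higher and 1, Gclc, lower. Over all tested genes it called 7.31% higher and 8.07% lower. Hspa1b, an inducible heat shock protein gene whose near-identical copy Hspa1a can share its reads, rose by 2.90 (SE 0.47, adjusted p = 0.0121 by edgeR), and Hspb1 by 1.05 (SE 0.28, adjusted p = 0.0396 by edgeR). Hmox1, the heme oxygenase gene that cadmium and heme induce, stood at 29.2, 16.2 and 12.1 CPM in the livers labelled iKO, against 19.4, 17.2 and 27.5 CPM in WT livers, so the groups overlapped. It was named after its values were seen. The count was 1 without WT 1 or WT 2, 0 without WT 3 and 0 once Y-linked reads were modelled. The Hspb1 call ended without any 1 library except iKO 2 (adjusted p up to 0.117 by edgeR, without WT 3), and the Hspa1b call without WT 3 (0.0695). The Hspb1 call also ended on both FPKM scales and with the length offset, where its log2 fold change was 0.60 (adjusted p = 0.156 by edgeR). On log2(FPKM + 1) the log2 fold change of Hspa1b was 2.31.

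**Figure D4:**
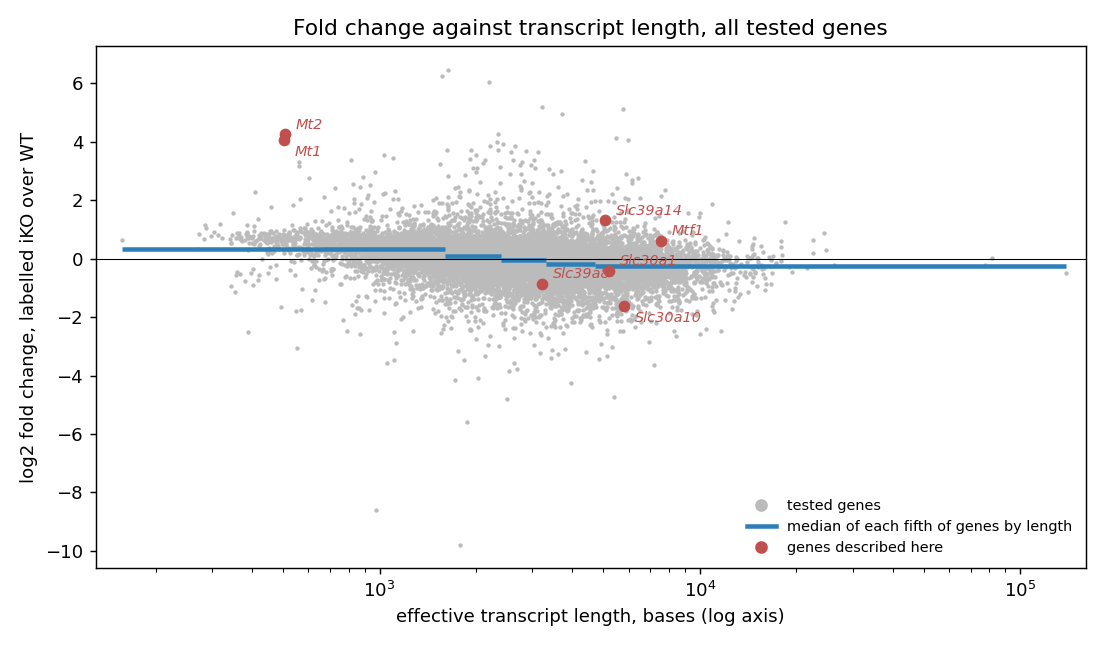
Log2 fold change, labelled iKO over WT, against effective transcript length in bases on a log axis for all tested genes with a length, with the median of each of 5 equal length classes and the 7 zinc-handling genes marked. Mt1 and Mt2 lie at 501 and 507 bases with fold changes of 4.08 and 4.25, where the median of the shortest class is 0.33.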

How the data were processed

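RNA-seq was read in 6 mouse livers, 3 labelled iKO and 3 WT. Mouse build mm9 and the tools HISAT2 2.0.4, Bowtie2 2.2.5 and RSEM 1.2.12 are named in the submitters' processing notes. The authors deposited expected counts (estimates that need not be whole) per gene and library. Beside them stand the authors' FPKM, divided by transcript length and depth, and the authors' TPM, length-scaled to 1 total per library. No strand setting of the counting is named in the labels. Counts were rounded and fitted over the whole table with edgeR 4.0.16 in R 4.3.3 (filterByExpr, TMM, robust quasi-likelihood F test, threshold 0.05 after Benjamini-Hochberg adjustment). Standard errors were derived from the fold change and its F statistic. Effective lengths came from counts and FPKM where FPKM reached 0.2.

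The genes and lists were chosen with earlier results of these data known. Besides the 7 genes, the text names the 6 genes most like Mt1 and up to 4 called genes per list, those of largest fold change first. Nr3c1 and Il6st were added as the only genes called lower in their lists. Alternatives were RLE and upper-quartile factors, a filter of 1 count, DESeq2 1.42.0, limma 3.58.1 (voom, log2(FPKM + 1) and log2(FPKM + 0.1)), a block by replicate number, omission of each library, a term for Y-linked reads (over 10 counts of Ddx3y and Kdm5d), those libraries alone, and a lowess length offset (span 0.3). "Whole" means within 0.001. Limits from 0 counts cover counting error only. The interval given with a fold change rests on its standard error, so it includes the spread between livers.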

Additional observations from a re-analysis of the deposited data

How the results depend on the processing

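The fold changes of the 7 zinc genes kept their direction in all 17 alternatives, and those of Slc39a14, Slc39a8, Slc30a1 and Slc30a10 moved by less than the spread between replicates. Genes called over the table numbered 184 with the term for Y-linked reads, 143 in the libraries with such reads, and 491 to 1840 when 1 library was left out. Zinc genes called numbered 3 with the replicate block, 2 with the Y-linked term, 1 in the Y-linked libraries and 2 to 5 with a library left out. With upper-quartile factors, with a filter of 1 count, with DESeq2 and on log2(FPKM + 0.1) 1 other zinc transporter was called, and 0 to 1 with a library left out. MTF1 targets called numbered 1 in both Y-linked fits and 1 to 2 with a library left out. Copper genes called numbered 4 with DESeq2, 1 with the length offset, 0 in both Y-linked fits and 1 to 3 with a library left out. Iron and manganese genes called numbered 2 with DESeq2 (1 of them higher) and 0 with RLE factors, limma-voom, both FPKM fits, the replicate block, both Y-linked fits, the length offset and any library left out. Glucocorticoid genes called numbered 3 in both Y-linked fits and 5 to 8 with a library left out. Acute phase genes called numbered 11 with DESeq2, 2 in both Y-linked fits and 3 to 5 with a library left out. Stress genes called numbered 0 in both Y-linked fits, 1 with the length offset and 0 to 2 with a library left out. The cause was not tested.

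Same-numbered livers had correlations of deviations of 0.206, 0.212 and 0.0467, so the numbers were not taken as pairs. The replicate block gave 1710 calls over the table, beside 2024 without it.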
